A study of Homo sapiens with 6 samples.

Results

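This account covers 33 genes of cholesterol and fatty acid synthesis in the ribosome profiles of K562 cells, chosen by symbol from a list of the sterol synthesis enzymes (18 genes), the proteins that sense and carry sterols (5 genes) and the fatty acid enzymes (10 genes). They were 33 of the 19330 genes in the table of counts, and all 33 had enough counts to be tested. K562 cells are an established line from a human chronic myelogenous leukemia. Ribosome profiling sequences the fragments of mRNA that ribosomes protect from nuclease, so that the counts of these footprints on a gene measure how many ribosomes occupy its mRNA. Cells carried pLentiCRISPRv2, a lentiviral vector with Cas9 and a guide RNA, against either N6AMT1 (sgN6AMT1, 3 libraries) or the olfactory receptor genes OR11A1 and OR2M49, as the labels spell them (sgCtrl, 3 libraries). Both groups therefore carried the vector, went through 48 h of puromycin selection and were collected 10 days after infection from medium with fetal bovine serum. N6AMT1 encodes the enzyme that methylates eRF1, a release factor of translation. Per the study's methods each library was a separate lentiviral transduction. The cells were not described as clones, and which control guide each sgCtrl library carried was not given in the sources used here.

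Cholesterol and fatty acids are both built from cytosolic acetyl-CoA. In the sterol branch, acetyl-CoA units are joined and converted through mevalonate to isoprenoid units, which are coupled to squalene, closed to a ring and trimmed to cholesterol. In the fatty acid branch, acetyl-CoA is carboxylated to malonyl-CoA, assembled to palmitate, and then elongated and desaturated. Genes of both branches are known targets of the sterol regulatory element-binding proteins encoded by SREBF1 and SREBF2, which SCAP escorts out of the endoplasmic reticulum and INSIG1 retains there when sterols are plentiful.

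The 6 libraries held between 1821356 and 2969736 counts. The counts of the targeted gene N6AMT1 were 25, 24 and 34 in sgCtrl libraries 1 to 3, and fell to 10, 9 and 8 in sgN6AMT1 (log2 fold change -1.51 ± 0.31 SE, adjusted p 6.69e-05 by edgeR). All 14 markers of K562 cells fixed for the check had at least 10 counts in every library. Of these 4 were higher (ALAS2, HBE1, GYPC and TAL1) and 5 lower (LMO2, TFRC, HBZ, GATA1 and KLF1) past the threshold in sgN6AMT1, with log2 fold changes from -1.44 to 1.68. The 4 adipocyte markers were at 0 in all libraries, and the 4 hepatocyte markers summed to at most 4.39 CPM, the count scaled to a common library size. Summed CPM of 5 epithelial markers ran from 2136 to 2223 in sgCtrl and from 2960 to 3001 in sgN6AMT1. KRT8, KRT18 and KRT19 among them were higher in sgN6AMT1 past the threshold, and the part of either marker shift in the results below was not tested. Chi-square per degree of freedom was 1.25 to 1.68 between libraries of 1 group and 4.89 to 7.04 between libraries of different groups.

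The question asked of the 33 genes was which of them had more or fewer footprints upon N6AMT1 depletion, and whether the sterol and the fatty acid branch differed. The genes past the threshold were mostly lower in sgN6AMT1, and the lower ones were HMGCS1, MVD, FDPS, ACAT2 and LSS of the sterol branch and FADS1, FADS2, FASN and ACACA of the fatty acid branch. FADS1, the fatty acid desaturase of largest decrease, fell to 0.508 times its control level, and FASN, the fatty acid synthase, fell to 0.615 times. ELOVL1, an elongase of very long chains, rose to 1.48 times. By edgeR's quasi-likelihood test, 12 of the 33 genes passed an adjusted p of 0.05, which was 36.4% of them against 26.9% of all 9202 genes tested. Of these 12, 9 were lower (27.3%, against 13.9% of all genes tested) and 3 were higher (9.09%, against 12.9%). For 15 of the 33 genes the sgCtrl and sgN6AMT1 libraries had no overlap in CPM (45.5%, against 37.5% of all genes tested). The median log2 fold change of the 33 genes was -0.026, beside 0.0063 over all genes tested, and the median absolute log2 fold change was 0.15, beside 0.21. Among the 6953 tested genes within the range of mean CPM of the 33, 29.5% passed the threshold (15.8% lower and 13.7% higher). For 39.8% of these genes the groups did not overlap, and their median absolute log2 fold change was 0.19. Footprints count both mRNA and its translation, so less mRNA and fewer ribosomes per mRNA cannot be told apart by these counts alone. The study also ran RNA-Seq on control and depleted K562 cells and derived translation efficiency, which were not used here. Fewer cells expressing a gene and less of it in each cell cannot be told apart either.

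**Figure D1:**
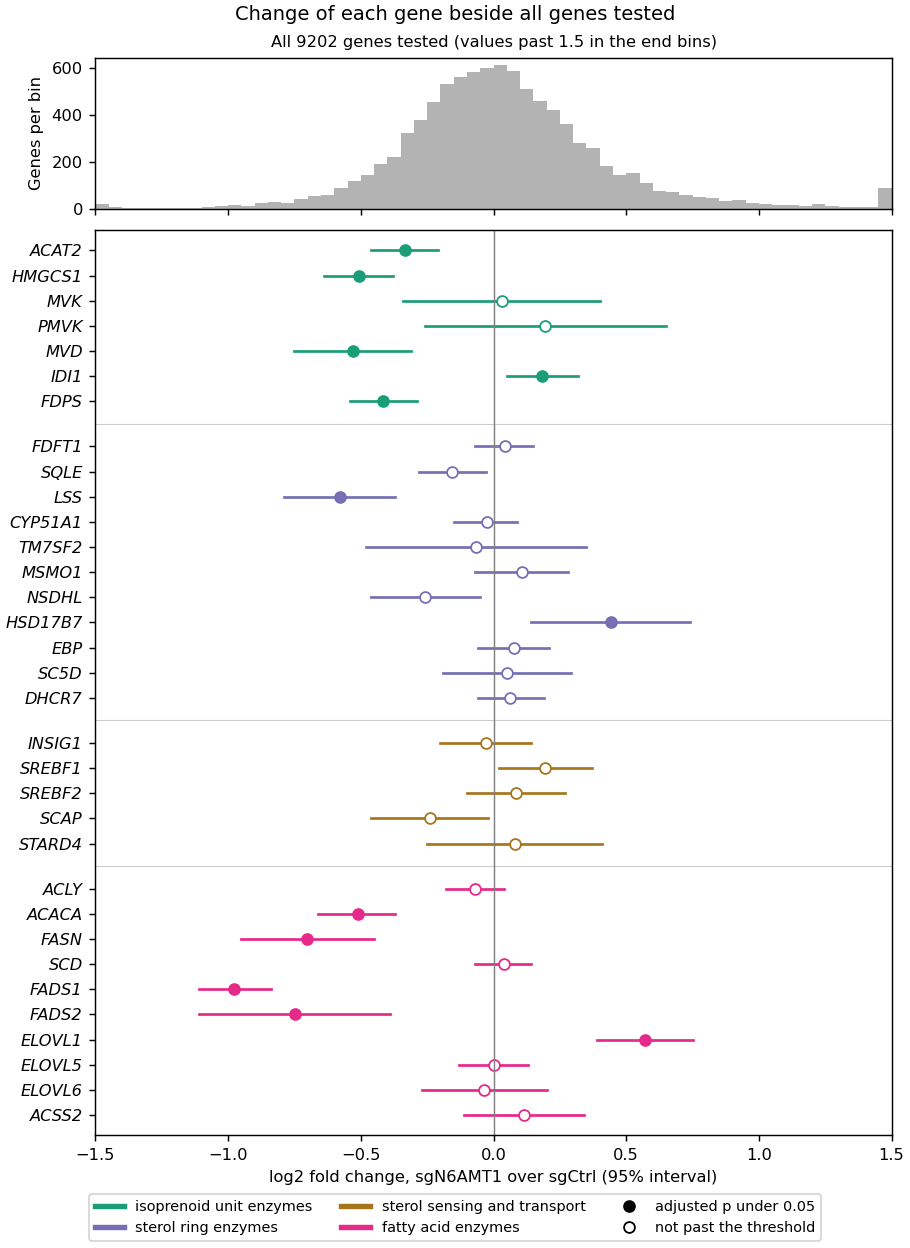
The upper panel counts all 9202 genes tested in bins of log2 fold change (sgN6AMT1 over sgCtrl), and the lower panel gives each of the 33 genes with its 95% interval, filled where the adjusted p was under 0.05. The filled points left of 0 are 5 sterol enzymes and 4 fatty acid enzymes, and those right of 0 are IDI1, HSD17B7 and ELOVL1.

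Promoter sequence was available for 28 of the 33 genes from RefSeq (GRCh38.p14). Stretches are shown for LSS and MVD, the sterol enzymes of largest decrease, for FADS1 and ELOVL1, the fatty acid enzymes that moved furthest down and up among those with a promoter, and for INSIG1, a classical sterol-responsive gene that did not pass the threshold. Each lies upstream of the annotated start and is printed 5′ to 3′ on the strand of its gene, without the bases that another transcript holds as an exon. Capitals mark the NF-Y box (CCAAT, or ATTGG on the opposite strand) and the Sp1 box (GGGCGG, or CCGCCC on the opposite strand), motifs of factors known to act beside sterol regulatory element-binding proteins. In INSIG1 a pair of Sp1 boxes overlap by 1 base. Sites in the bases left out are not shown, among them an NF-Y box of ELOVL1 and Sp1 boxes of LSS, ELOVL1 and INSIG1. They are counted in the shares given below. The ELOVL1 stretch is set by a start 273 bases from that of the listed transcript. The stretches lie at chr21:46228825-46229024 (minus strand, LSS), chr16:88663149-88663341 (minus strand, MVD), chr11:61817198-61817253 (minus strand, FADS1), chr1:43368075-43368261 (minus strand, ELOVL1) and chr7:155297628-155297775 (plus strand, INSIG1).
LSS: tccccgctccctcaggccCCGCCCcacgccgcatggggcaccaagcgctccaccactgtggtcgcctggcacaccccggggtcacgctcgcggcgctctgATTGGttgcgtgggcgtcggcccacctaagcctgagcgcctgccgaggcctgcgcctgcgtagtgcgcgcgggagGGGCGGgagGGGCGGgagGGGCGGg
MVD: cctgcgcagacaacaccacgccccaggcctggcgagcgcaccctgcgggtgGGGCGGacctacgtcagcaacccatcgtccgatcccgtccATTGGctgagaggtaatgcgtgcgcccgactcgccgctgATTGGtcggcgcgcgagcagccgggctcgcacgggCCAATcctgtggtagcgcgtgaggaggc
FADS1: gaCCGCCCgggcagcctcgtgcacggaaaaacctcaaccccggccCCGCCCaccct
ELOVL1: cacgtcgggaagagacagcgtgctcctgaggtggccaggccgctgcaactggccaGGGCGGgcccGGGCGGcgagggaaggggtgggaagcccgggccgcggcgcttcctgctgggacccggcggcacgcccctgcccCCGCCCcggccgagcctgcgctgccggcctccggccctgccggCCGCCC
INSIG1: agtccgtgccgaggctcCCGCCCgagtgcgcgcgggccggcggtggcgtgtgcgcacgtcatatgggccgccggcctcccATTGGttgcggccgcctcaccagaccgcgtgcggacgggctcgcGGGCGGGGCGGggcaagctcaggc

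In the 250 bases upstream of the start, searched on both strands, an NF-Y box was found in 13 of 15 sterol enzymes (86.7%), in 3 of the 5 sensing and transport genes and in 4 of 8 fatty acid enzymes (50%). Of the 6698 tested genes with such a window, 37.0% held one, and of all 35116 windows 32% did. MVD held 3 NF-Y boxes and LSS held 1, while FADS1 and ACACA held none. The Sp1 box was found in 26 of the 28 genes, against 71.6% of the tested genes, with NSDHL and ELOVL5 the genes without it. The letters TCACNCCAC, a core of the sterol regulatory element, occurred in SREBF2 alone (1 of 28 genes, against 0.8% of tested genes), and the E-box CACGTG in 4 genes, SC5D, INSIG1, SCAP and ELOVL5, against 9.3%. The NF-Y box was present in 7 of the 9 genes past the threshold and in 13 of the 19 that were not. A match gives the letters and no evidence of binding. A missing match does not show that a gene lacks the element, as only these letters in these 250 bases were searched.

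The first steps of the sterol branch, from acetyl-CoA to farnesyl diphosphate, held most of the sterol genes that changed. Of these 7 enzymes 4 fell and 1 rose past the threshold (71.4%, against 26.9% of all genes tested). The 4 that fell made up 57.1%, against 13.9%, and the median log2 fold change of the 7 was -0.33. Positions are those of the listed transcript in GRCh38. HMGCS1 (chromosome 5, 43289395 to 43313512, minus strand), the cytosolic synthase of HMG-CoA, gave 274, 282 and 276 CPM in sgCtrl libraries 1 to 3 and 192, 188 and 206 CPM in sgN6AMT1. The groups did not overlap, and the log2 fold change was -0.51 ± 0.066 (SE, adjusted p 5.35e-10 by edgeR). MVD (chromosome 16, 88651940 to 88663091, minus strand), the decarboxylase that makes isopentenyl diphosphate, gave 87.4, 81.4 and 80.9 CPM in sgCtrl and 55.2, 54.4 and 64.1 CPM in sgN6AMT1. All of its sgN6AMT1 values lay below the lowest control value (log2 fold change -0.53 ± 0.11 SE, adjusted p 7.22e-05 by edgeR). FDPS (chromosome 1, 155308916 to 155320665, plus strand), the farnesyl diphosphate synthase, gave 354, 322 and 338 CPM against 231, 257 and 271 CPM. It fell by 0.42 ± 0.063 on the log2 scale (SE, adjusted p 7.18e-08 by edgeR), again with no overlap. ACAT2 (chromosome 6, 159762045 to 159779112, plus strand), the cytosolic thiolase that joins the first acetyl-CoA units, gave 337, 361 and 352 CPM against 285, 292 and 256 CPM. This was the smallest decrease of the 4, with a log2 fold change of -0.33 ± 0.061 (SE, adjusted p 6.85e-06 by edgeR).

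IDI1 (chromosome 10, 1039419 to 1049119, minus strand), the isomerase that follows MVD in the same route, went the other way. Its CPM were 207, 210 and 217 in sgCtrl and 263, 226 and 230 in sgN6AMT1. The groups did not overlap, but the rise was small, with a log2 fold change of 0.18 ± 0.067 (SE, adjusted p 0.033 by edgeR). It was lost without sgN6AMT1 replicate 1, the library of highest value (edgeR adjusted p 0.321), without sgCtrl replicate 1 or 2 (0.0913 and 0.111), with no filter on low counts (0.0578) and in DESeq2 (0.226). Of the 26-base stretches of coding sequence, 18.6% in IDI1 and 33.1% in FDPS also occur in other GENCODE genes, among them the processed pseudogenes IDI1P1 and FDPSP5. The kinases MVK and PMVK did not pass the threshold, and with means of 13.0 to 22.3 CPM they were the least abundant enzymes of this stretch. The 95% interval of the log2 fold change ran from -0.34 to 0.40 for MVK and from -0.26 to 0.65 for PMVK, so that a decrease as large as that of HMGCS1 lies outside both intervals.

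**Figure D2:**
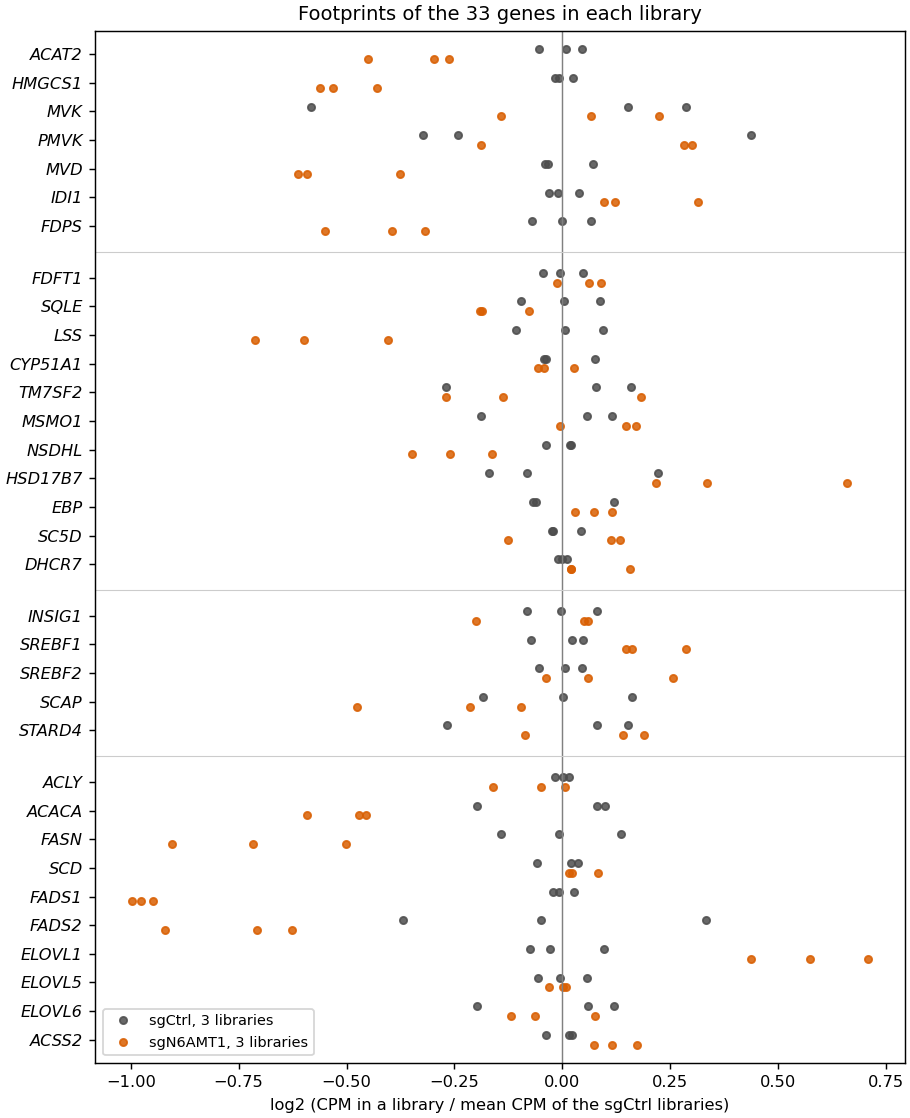
Each point is the CPM of 1 gene in 1 library, as the log2 ratio to the mean of the 3 sgCtrl libraries, for the 33 genes in the order of their roles. The 3 sgN6AMT1 values of FADS1 lie closely together near -1, while those of FASN, MVD and LSS spread more widely below the controls.

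The enzymes that make and remodel the sterol ring mostly did not pass the threshold. Of these 11 genes 1 fell and 1 rose (18.2%, against 26.9% of all genes tested), and the median log2 fold change was 0.043. Most genes of the whole table did not pass either. LSS, the lanosterol synthase that closes the ring, gave 95.9, 102 and 88.7 CPM in sgCtrl and 63.1, 58.3 and 72.2 CPM in sgN6AMT1. Its groups did not overlap, with a log2 fold change of -0.58 ± 0.11 (SE, adjusted p 6.21e-06 by edgeR). LSS lies on chromosome 21 (46188446 to 46228774, minus strand, 22 exons), as does the targeted gene. The 86 tested genes of that chromosome had a median log2 fold change of -0.26, 43.0% of them passed the threshold as lower, and 13 had a lower value than LSS. The part of this shift in the value of LSS was not tested.

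HSD17B7 (chromosome 1, 162790702 to 162812823, plus strand), a sterol keto reductase, gave 25.6, 24.1 and 31.6 CPM in sgCtrl and 34.2, 42.8 and 31.5 CPM in sgN6AMT1. The lowest sgN6AMT1 value met the highest control value, and the log2 fold change was 0.44 ± 0.15 (SE, adjusted p 0.0194 by edgeR). Without sgN6AMT1 replicate 2, the library of highest value, it was 0.30 (edgeR adjusted p 0.246), without sgCtrl replicate 1 the edgeR adjusted p was 0.0509 and without sgCtrl replicate 2 it was 0.157, and DESeq2 gave an adjusted p of 0.239. Of the 26-base stretches of its coding sequence, the shorter of the footprint lengths kept, 73.0% also occur in the transcribed pseudogene HSD17B7P2, so its count is uncertain.

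The other 9 ring enzymes carried most of the sterol footprints. FDFT1, the squalene synthase, had 423 ± 13.7 CPM in sgCtrl and 436 ± 16.0 CPM in sgN6AMT1 (SD, n = 3 each), with a 95% interval of the log2 fold change from -0.07 to 0.15. SQLE, the squalene epoxidase, had 319 ± 19.9 and 287 ± 12.9 CPM, an interval from -0.28 to -0.03 and an edgeR adjusted p of 0.0518, just short of the threshold. NSDHL, a dehydrogenase that acts in removal of methyl groups from the ring, had no overlap between groups (87.1 ± 1.94 and 73.0 ± 4.70 CPM) and an edgeR adjusted p of 0.0542. Both were among the 9 genes that did not pass, and either passed in some of the alternatives described below. For CYP51A1, the lanosterol demethylase, and DHCR7, the last reductase of one route to cholesterol, the 95% intervals ran from -0.15 to 0.09 and from -0.06 to 0.19. Those of EBP, a sterol isomerase (-0.06 to 0.21), and MSMO1, a methylsterol oxidase (-0.07 to 0.28), left no room for a decrease of the size seen in LSS. SC5D, a sterol desaturase, and TM7SF2, a sterol reductase, had wider intervals, from -0.19 to 0.29 and from -0.48 to 0.35. Of the stretches of CYP51A1 and EBP, 87.4% and 66.8% are shared with an unnamed GENCODE gene each, so how their reads were divided is uncertain too.

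None of the 5 genes of sterol sensing and transport passed the threshold, which 26.9% of all genes tested did. SREBF1 had 107 ± 4.57 CPM in sgCtrl and 123 ± 6.57 CPM in sgN6AMT1 (SD, n = 3 each), without overlap between the groups (log2 fold change 0.19 ± 0.087 SE, adjusted p 0.0893 by edgeR). SREBF2 had 99.0 ± 3.67 and 106 ± 11.0 CPM, with a 95% interval of the log2 fold change from -0.10 to 0.27. SCAP had 79.9 ± 9.54 and 67.0 ± 8.82 CPM, with an interval from -0.46 to -0.02 and an edgeR adjusted p of 0.101. INSIG1, whose transcription is known to follow the activity of sterol regulatory element-binding proteins, gave 126, 133 and 141 CPM in sgCtrl and 116, 139 and 138 CPM in sgN6AMT1. The values of INSIG1 overlapped between the groups, with the lowest in sgN6AMT1 and the highest in sgCtrl, and the interval of its log2 fold change ran from -0.20 to 0.14. STARD4, a carrier of cholesterol between membranes, had few footprints (24.2 ± 3.62 and 25.7 ± 2.58 CPM) and an interval from -0.25 to 0.41.

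Among the 10 fatty acid enzymes 4 fell and 1 rose (50%, against 26.9% of all genes tested). The largest changes of the 33 genes in either direction were found here. The delta desaturases FADS1 and FADS2, which introduce double bonds into polyunsaturated fatty acids, both fell. FADS1 gave 303, 293 and 296 CPM in sgCtrl and 151, 149 and 154 CPM in sgN6AMT1. The spread within each group was small beside the distance between them, with a log2 fold change of -0.98 ± 0.067 (SE, 95% interval -1.11 to -0.84, adjusted p 5.52e-23 by edgeR). Only 0.804% of all genes tested had a lower log2 fold change. FADS2 had 44, 80 and 73 footprints in sgCtrl against 40, 35 and 34 in sgN6AMT1, or 22.1, 27.6 and 36.0 CPM against 17.5, 15.1 and 18.5 CPM. At these counts its interval was wide, from -1.11 to -0.39 around a log2 fold change of -0.75 ± 0.18 (SE, adjusted p 0.000776 by edgeR), and the groups did not overlap. FADS1 and FADS2 together had 51.6% of their control CPM.

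FASN (chromosome 17, 82078338 to 82098236, minus strand), the synthase that assembles palmitate, was the member with the most footprints, with counts of 2359, 3108 and 1984 in sgCtrl and 1314, 1518 and 1404 in sgN6AMT1. In CPM this was 1185, 1072 and 978 against 576, 656 and 762, with no overlap. The values varied more within each group than those of FADS1, and the log2 fold change was -0.70 ± 0.11 (SE, 95% interval -0.95 to -0.45, adjusted p 0.00177 by edgeR). ACACA, the carboxylase that makes malonyl-CoA for FASN, also lies on chromosome 17 (37084992 to 37406836, minus strand) and gave 242, 239 and 197 CPM in sgCtrl and 165, 150 and 163 CPM in sgN6AMT1. It fell by 0.51 ± 0.073 on the log2 scale (SE, adjusted p 1.41e-08 by edgeR) and had no value in common between the groups. ELOVL1 (chromosome 1, 43363398 to 43367738, minus strand), which elongates saturated and monounsaturated chains, gave 84.9, 87.6 and 95.6 CPM in sgCtrl and 121, 133 and 146 CPM in sgN6AMT1. It rose by 0.57 ± 0.091 on the log2 scale (SE, adjusted p 2.57e-07 by edgeR), without overlap.

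The enzymes that supply acetyl-CoA and the stearoyl desaturase did not pass the threshold. ACLY, which makes acetyl-CoA from citrate, had 539 ± 5.84 CPM in sgCtrl and 514 ± 29.9 CPM in sgN6AMT1 (SD, n = 3 each), with a 95% interval of the log2 fold change from -0.18 to 0.04. SCD, which makes monounsaturated fatty acids, had 583 ± 20.3 and 599 ± 15.2 CPM and an interval from -0.07 to 0.14. ACSS2, which makes acetyl-CoA from acetate, had 58.7 ± 1.32 and 63.9 ± 2.24 CPM, without overlap, and an interval from -0.11 to 0.34. These intervals exclude a decrease of the size of the log2 fold change measured in ACACA or FASN. The elongases ELOVL5, which acts on polyunsaturated chains, and ELOVL6, which acts on palmitate, had intervals from -0.13 to 0.13 and from -0.27 to 0.20, both below the log2 fold change of ELOVL1. For SCD, 38.6% of the stretches occur in the pseudogene SCDP1.

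**Figure D3:**
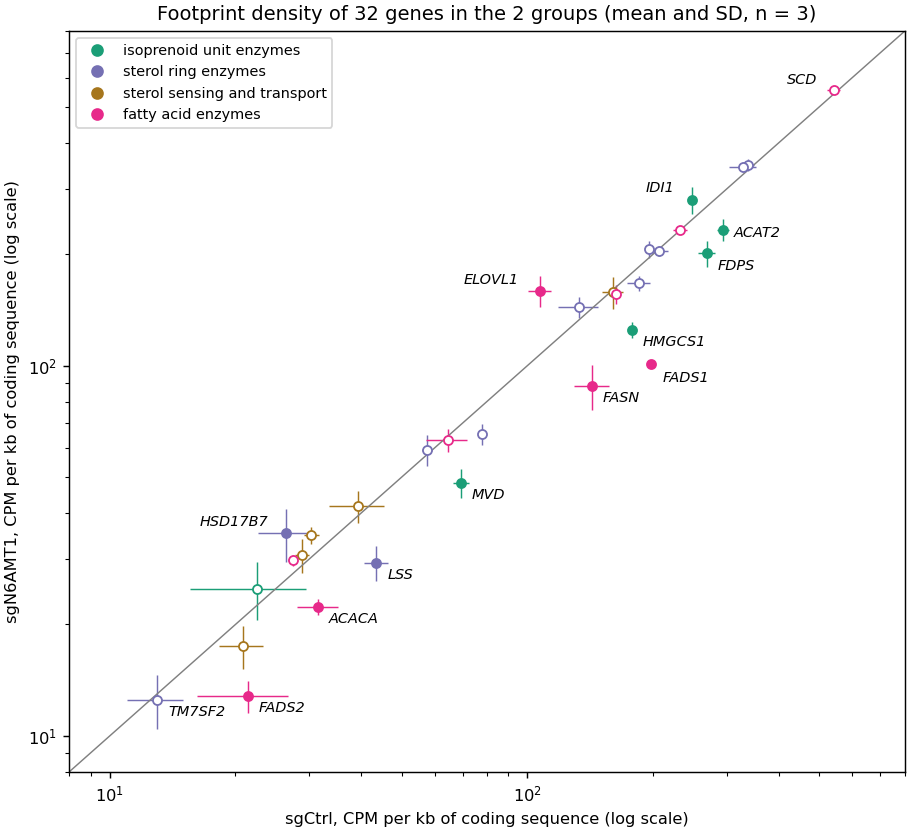
Mean CPM per kb of coding sequence in sgCtrl (horizontal) and sgN6AMT1 (vertical), both on log scales, for the 32 genes with a coding length, with SDs over 3 libraries and filled points for an adjusted p under 0.05. SCD lies highest on the line of equal density, FADS1 and FASN lie below the line, and ELOVL1 above it.

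Per kb of coding sequence, which allows levels to be set side by side between genes, SCD was the densest member with 541 ± 18.8 CPM per kb in sgCtrl (SD, n = 3). FDFT1 (338 ± 11.0) and EBP (328 ± 24.5) followed and did not differ from each other beyond their spread. FASN, first by CPM, had 143 ± 13.8 CPM per kb in sgCtrl and 88.2 ± 12.4 in sgN6AMT1, since its coding sequence is 7533 bases long. FADS1 went from 198 ± 3.47 to 101 ± 1.67 CPM per kb, and ELOVL1 from 107 ± 6.69 to 159 ± 15.2 CPM per kb. FADS1 was thus denser than ELOVL1 in sgCtrl and less dense than it in sgN6AMT1. TM7SF2 (13.0 ± 1.98 CPM per kb in sgCtrl) was the least dense of the 32 genes with a coding length.

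Set side by side, the branches differed in which of their steps moved. The 18 sterol enzymes had 7 genes past the threshold (38.9%, 5 lower and 2 higher) and the 10 fatty acid enzymes had 5 (50%, 4 lower and 1 higher), beside 26.9% of all genes tested. Median log2 fold changes were near 0 in both, at 0.0023 for the sterol enzymes and -0.052 for the fatty acid enzymes, because the genes that did not pass lay on either side of 0. Summed CPM of the 18 sterol enzymes were 3189, 3312 and 3261 in sgCtrl and 3006, 2986 and 2997 in sgN6AMT1, 92.1% of the control mean (log2 ratio -0.12), with no overlap. The sums of the 7 enzymes up to farnesyl diphosphate were 1303, 1291 and 1289 in sgCtrl against 1064, 1054 and 1063 in sgN6AMT1, 81.9% of the control mean. Those of the 11 ring enzymes were 1885, 2021 and 1972 against 1942, 1932 and 1934, or 98.8%, and the groups overlapped. For the 10 fatty acid enzymes the sums were 3306, 3186 and 3045 against 2442, 2559 and 2737, or 81.1%, with no overlap.

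FASN set much of the fatty acid sum. It made up 33.9% ± 1.87 of it in sgCtrl and 25.7% ± 2.13 in sgN6AMT1 (SD, n = 3 each). Without FASN the other 9 enzymes still did not overlap between groups, but stood at 91.1% of control (2101 ± 29.7 and 1915 ± 55.4 CPM). The ratio of the fatty acid to the sterol sum was 1.04, 0.962 and 0.934 in sgCtrl and 0.812, 0.857 and 0.913 in sgN6AMT1. Every sgN6AMT1 ratio lay below every control ratio, the nearest pair being close. This ratio includes FASN. The fatty acid sum without FASN, at 91.1% of control, stood near the sterol sum at 92.1%. Only FASN was left out, with its decrease known, while the sterol sum kept all of its genes. FADS1, FADS2 and ACACA also fell past the threshold, and ELOVL1 rose. The part of FASN in the lower ratio was not tested.

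**Figure D4:**
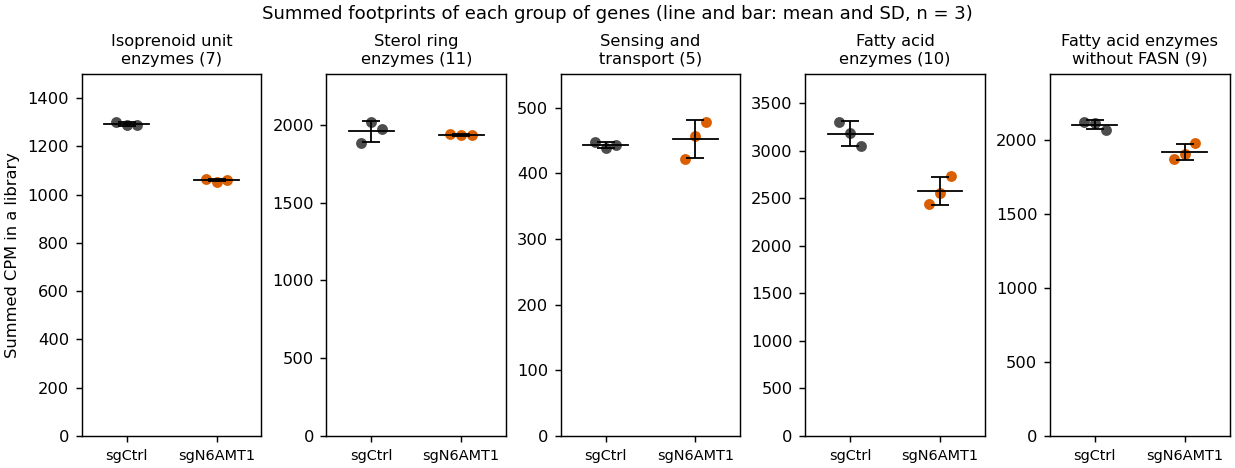
Summed CPM per library for each group of genes, with vertical axes from 0, points for the 3 libraries of a group and lines and bars for mean and SD. The groups are apart for the 7 isoprenoid unit enzymes and the fatty acid enzymes with and without FASN, and overlap for the 11 ring enzymes and the 5 sensing and transport genes.

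FADS1 (61799627 to 61817003, minus strand) and FADS2 (61828300 to 61867354, plus strand) are neighbours on chromosome 11 in GRCh38, followed by FADS3, a related desaturase that is not among the 33. FADS3 gave 48.2, 46.9 and 49.3 CPM in sgCtrl and 26.7, 34.6 and 38.0 CPM in sgN6AMT1. It fell by 0.55 ± 0.13 on the log2 scale (SE, adjusted p 0.000758 by edgeR). Of 12 genes listed in this cluster and within 250 kb on either side 9 were tested, of which 5 were lower and 2 were higher past the threshold, where 13.9% and 12.9% of all genes tested were. The 5 include FADS1 and FADS2, for whose decrease the region was examined. RAB3IL1 beside FADS3 fell by 0.58 and FEN1 beside FADS1 fell by 0.16 (edgeR adjusted p 0.0363 and 0.0391), while MYRF and FTH1 rose by 0.77 and 0.88 (edgeR adjusted p 0.000439 and 7.96e-15). TMEM258 and INCENP had log2 fold changes of -0.0051 and 0.026 and did not pass. The coding sequences of FADS2 and FADS3 shared 1 stretch of 26 bases (0.1% of those of FADS2), and FADS1 shared none with another gene.

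Coding length moved with the log2 fold change over all genes. Among the tested genes the median was 0.048 for the 2768 with a coding sequence under 1000 bases and -0.11 for the 155 of at least 7000 bases, of which 29.7% were lower past the threshold. FASN (7533 bases) and ACACA (7149 bases) belong to the latter. With trends on coding length and GC content removed, FASN was at -0.59 and ACACA at -0.47 on the log2 scale, both still past the threshold. FADS1 was at -1.08 and ELOVL1 at 0.47 in that fit.

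**Figure D5:**
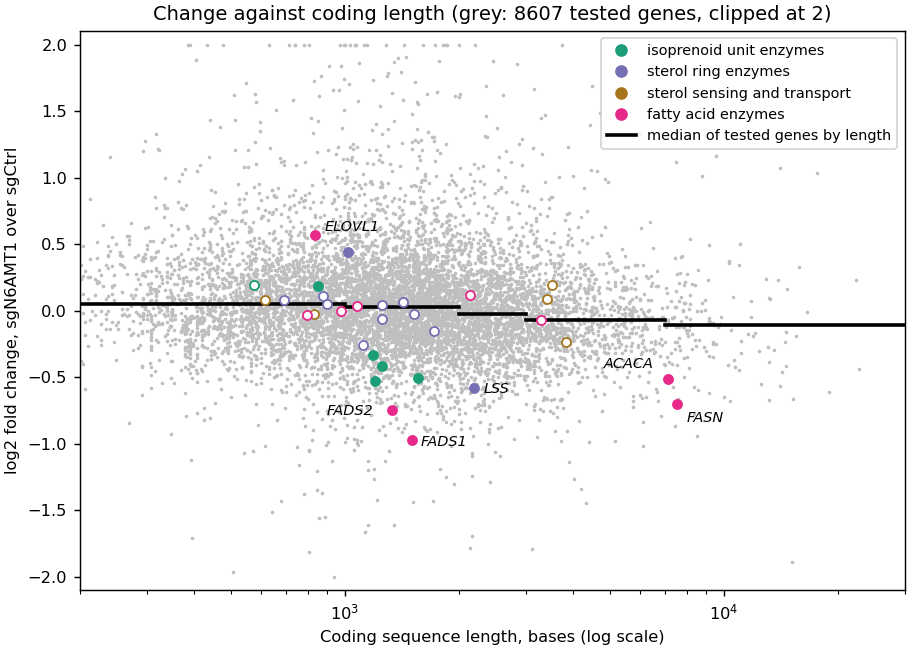
Log2 fold change (sgN6AMT1 over sgCtrl) against coding length on a log scale for 8607 tested genes in grey, with black lines for their median in 5 length ranges and coloured points for the members, filled where the adjusted p was under 0.05. The medians step from 0.048 down to -0.11, and FASN, ACACA, FADS1 and LSS lie below the median of their range.

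Genes of neighbouring lipid pathways were read from 7 further lists, of which 96 genes were tested, and 14 of them were higher and 16 lower past the threshold (31.2%, against 26.9% of all genes tested). Of 11 tested genes that process or regulate the sterol regulatory element-binding proteins, 3 rose and 2 fell (45.5%). SEC24D, a coat protein of the vesicles that leave the endoplasmic reticulum, rose from 32.8 ± 3.10 to 50.1 ± 7.40 CPM (SD, n = 3 each). ERLIN2, a membrane protein of the endoplasmic reticulum, fell from 72.5 ± 5.67 to 54.7 ± 7.18 CPM. SEC24D was past the threshold in all 15 alternatives and ERLIN2 in all but DESeq2.

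Of 8 tested partners of the sterol enzymes 1 rose and 2 fell (37.5%, against 26.9% of all genes tested). FAXDC2, a hydroxylase-family protein, rose by 0.84 on the log2 scale, and LBR, the lamin B receptor, which has sterol reductase activity, fell by 0.37 (edgeR adjusted p 3.17e-05 and 1.08e-07). ACAT1, the mitochondrial counterpart of ACAT2, fell by 0.21 (edgeR adjusted p 0.0109), and was past the threshold in 12 of 15 alternatives, not in DESeq2, with library totals only or without sgCtrl replicate 2. Among 11 genes that use isoprenoid units for other products 0 rose and 2 fell (18.2%), COQ2 of coenzyme Q synthesis by 0.87 and RABGGTA of protein prenylation by 0.51 (edgeR adjusted p 0.0115 and 0.0424). RABGGTA passed in 6 of 14 alternatives and COQ2 in 11. Of 15 genes of cholesterol uptake, transport and esterification 1 rose and 1 fell (13.3%, against 26.9% of all genes tested). MYLIP, a ubiquitin ligase that marks lipoprotein receptors for degradation, rose from 21.8 ± 3.44 to 39.3 ± 2.28 CPM, and SCARB1, a lipoprotein receptor, fell from 125 ± 10.2 to 78.6 ± 3.91 CPM (SD, n = 3 each).

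Genes of fatty acid oxidation changed in both directions, with 3 higher and 7 lower of 20 tested (50%, against 26.9% of all genes tested). ACAA2, a mitochondrial thiolase, rose by 1.10 on the log2 scale (edgeR adjusted p 1.87e-08). ACADM, the medium-chain acyl-CoA dehydrogenase, fell by 0.81 and CPT1A, which moves acyl chains into mitochondria, by 0.68 (edgeR adjusted p 8.17e-13 and 7.6e-06). Of 13 other genes of fatty acid synthesis and activation 4 rose and 2 fell (46.2%), among them ACSL3, an acyl-CoA synthetase, from 141 ± 6.97 to 200 ± 6.35 CPM, HACD3, a dehydratase of the elongation cycle, from 214 ± 2.04 to 253 ± 6.62 CPM, and SLC25A1, the mitochondrial citrate carrier, from 166 ± 6.79 to 140 ± 11.7 CPM (SD, n = 3 each). SLC25A1 was past the threshold in 11 of 15 alternatives. Of 18 genes of glycerolipid and phospholipid synthesis 2 rose and 0 fell (11.1%), LPIN1, a phosphatidate phosphatase, and CHPT1, a choline phosphotransferase, by 0.32 and 0.31 on the log2 scale (edgeR adjusted p 0.0357 and 0.0432). They were past the threshold in 8 and 5 of 15 alternatives.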

How the data were processed

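Ribosome footprints were measured in K562 cells, in 3 control (sgCtrl) and 3 depleted (sgN6AMT1) libraries. The authors deposited whole-number counts per transcript, not normalized. Per the study's methods and processing notes they trimmed reads with cutadapt, kept footprint lengths, mapped to GRCh38 with HISAT2, removed rRNA and tRNA and mapped to canonical transcripts with Bowtie2. Whether the table holds P-site or gene overlap counts was not given in the sources used here. Without molecular identifiers, counts are not independent molecules. Counts were tested with edgeR 4.0.16 (R 4.3.3): filterByExpr with a minimum of 10 counts (9202 genes kept; the 10128 removed held 0.465% of counts), TMM factors, a 2-sided quasi-likelihood F test and Benjamini-Hochberg adjustment over all genes tested at 0.05. CPM are TMM-scaled. Transcripts were matched to GENCODE v44 by identifier, which placed 32 of the 33 (not MVK). Alternatives used DESeq2 1.42.0, limma-voom (limma 3.58.1), other scaling or filters, the replicate number as a block, removed coding length and GC trends, and each library left out. Library totals ran from 1821356 to 2969736 counts, and the lowest member count was 21 (PMVK). The 33 members and all lists were chosen with earlier results of these data known. All members are named, at most 2 genes per direction with the smallest p in each further list, and promoters by the largest change among genes past the threshold. Some genes that this rule names are not reported here.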

Additional observations from a re-analysis of the deposited data

How the results depend on the processing

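The 9 decreases and the increase of ELOVL1 stayed past the threshold with the same sign in all 15 alternatives. Lower members numbered 9 to 11 over these. Higher members, 3 as reported, numbered 1 in DESeq2 and 1 to 3 without a library, where the calls of IDI1 and HSD17B7 were the ones lost. They numbered 4 with library totals only, at a mean of at least 50 counts and with trends removed, where SREBF1 passed as well. DESeq2 called 1329 genes in all, against 2473, and 7 higher and 7 lower genes of the further lipid lists, against 14 and 16; leaving out a library gave 1859 to 2322 genes in all and 9 to 12 higher and 12 to 15 lower lipid genes. With library totals only, which raised the median of all genes from 0.0063 to 0.061 and took the share of lower calls from 51.8% to 38.5%, the median of the fatty acid enzymes was 0.0024 (reported -0.052) and the log2 ratio of the sterol sum -0.065 (reported -0.12); with trends on coding length and GC content removed the latter was -0.17. Without a library the median of the fatty acid enzymes was -0.09 to -0.02, that of the sterol enzymes -0.05 to 0.04, and the log2 ratios of the sums -0.35 to -0.26 and -0.14 to -0.11. The cause of these differences was not tested.

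The sign turned only in members that had not passed. With library totals only this held for CYP51A1 (0.029), INSIG1 (0.027), ELOVL5 (0.055) and ELOVL6 (0.020), with trends removed for FDFT1 (-0.017), EBP (-0.055), DHCR7 (-0.046) and SCD (-0.044), and for ELOVL5 also in limma-voom (0.0014), with upper-quartile factors (0.013) and at a mean of at least 50 counts (0.026). Without 1 library the values ran across 0 for MVK (-0.169 to 0.159), CYP51A1 (-0.0536 to 0.0149), TM7SF2 (-0.212 to 0.0344), INSIG1 (-0.0777 to 0.0568), STARD4 (-0.0271 to 0.176), ELOVL5 (-0.0331 to 0.0252) and ELOVL6 (-0.1163 to 0.0128). SQLE passed in 4, SREBF1 in 3, NSDHL in 2 and SCAP in 1 of the alternatives. A mean of at least 50 counts kept 30 of the 33 members.

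Libraries of the same number did not deviate together (correlations of -0.06, 0.02 and 0.02), so the numbers do not pair them. With the replicate block 2390 genes passed, with 2 higher and 9 lower members, 12 higher and 15 lower lipid genes, and medians of -0.0004 for the sterol and -0.047 for the fatty acid enzymes; IDI1 was lost (adjusted p 0.0608). Depth limits members with few footprints: 6 had under 100 counts in every library.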
